A study of Mus musculus with 6 samples.

Results

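The heat shock proteins and molecular chaperones were examined in mouse livers labelled as lacking the kinase Nek7 and in wild-type livers. Members were every gene of the deposited table whose symbol names an HSP90, HSP70 or HSP110 protein, a small heat shock protein, HSP60 or HSP10, a J protein (Dnaja, Dnajb or Dnajc), a BAG protein, a subunit of the TRiC chaperonin, or one of the adaptors St13 and Stip1. This gave 88 of 17441 genes. By textbook knowledge 51 act in the cytosol or nucleus, 13 in the endoplasmic reticulum (ER) and 8 in mitochondria, 10 belong to TRiC and 6 were left unassigned. The symbols of 2 genes match by name only: Hspb11, a subunit of the intraflagellar transport machinery, and Hspbap1, a protein that binds a small heat shock protein.

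RNA was sequenced from 3 livers labelled as a whole-body, tamoxifen-inducible Nek7 knockout (iKO) and from 3 livers labelled WT. All 6 were collected 10 days after tamoxifen, so both groups share that treatment. The sources used here do not give strain, sex, age, the hour of collection or the driver of the inducible allele. That the livers came from separate animals is not stated, and p-values then cover only the variation among these 6 samples, which may be technical.

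Chaperones bind unfolded or partly folded proteins and keep them from aggregating. In the cytosol, J proteins hand clients to HSP70, nucleotide exchange factors of the HSP110 and BAG families release them, and the adaptor Stip1 passes some of them to HSP90. Small heat shock proteins hold clients without ATP, and the ring-shaped TRiC folds actin and tubulin. The ER and the mitochondrial matrix have their own HSP70, HSP90 or HSP60 proteins. In the heat shock response the transcription factor HSF1 binds repeats of GAA and its complement TTC, the heat shock element, in the promoters of cytosolic chaperone genes. Genes of ER chaperones answer instead to the unfolded protein response, in which ATF6 acts through the ER stress element. The liver secretes most plasma proteins and therefore has abundant ER chaperones.

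The 5 promoters shown here are examples of the motifs searched, chosen because each holds one, from cytosolic, mitochondrial and ER chaperones. Members without a match, such as Dnajb1, are not shown. The sequences are RefSeq windows of build GRCm38.p6, from 250 bases before to 50 bases after the annotated start, each written 5′ to 3′ along its gene. Hsph1 has a pair of overlapping windows, of which 1 is shown. Capitals mark a heat shock element of 2 units (GAANNTTC or TTCNNGAA) in the first 4 sequences, and the ER stress element (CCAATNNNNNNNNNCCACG on either strand) in the last. Hspa1b lies at chr17:34959189-34959488 on the minus strand, Hsph1 at chr5:149636266-149636565 on the minus strand, Hspb1 at chr5:135887669-135887968 on the plus strand, Hspe1 at chr1:55087898-55088197 on the plus strand and Hspa5 at chr2:34771840-34772139 on the plus strand.
Hspa1b: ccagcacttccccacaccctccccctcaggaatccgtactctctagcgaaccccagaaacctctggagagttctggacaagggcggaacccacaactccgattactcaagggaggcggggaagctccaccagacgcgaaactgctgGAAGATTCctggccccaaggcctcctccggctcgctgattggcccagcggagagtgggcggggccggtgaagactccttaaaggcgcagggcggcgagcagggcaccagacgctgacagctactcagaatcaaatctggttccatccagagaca
Hsph1: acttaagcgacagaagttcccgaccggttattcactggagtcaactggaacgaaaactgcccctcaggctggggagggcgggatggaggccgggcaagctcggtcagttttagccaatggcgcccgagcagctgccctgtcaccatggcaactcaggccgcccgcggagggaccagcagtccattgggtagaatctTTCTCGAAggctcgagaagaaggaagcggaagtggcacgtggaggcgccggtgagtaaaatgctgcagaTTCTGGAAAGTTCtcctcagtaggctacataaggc
Hspb1: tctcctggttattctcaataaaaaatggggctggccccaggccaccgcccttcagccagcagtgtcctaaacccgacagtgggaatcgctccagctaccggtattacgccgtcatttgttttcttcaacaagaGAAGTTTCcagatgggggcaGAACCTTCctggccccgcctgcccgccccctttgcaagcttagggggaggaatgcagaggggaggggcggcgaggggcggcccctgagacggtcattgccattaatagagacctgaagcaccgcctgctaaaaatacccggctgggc
Hspe1: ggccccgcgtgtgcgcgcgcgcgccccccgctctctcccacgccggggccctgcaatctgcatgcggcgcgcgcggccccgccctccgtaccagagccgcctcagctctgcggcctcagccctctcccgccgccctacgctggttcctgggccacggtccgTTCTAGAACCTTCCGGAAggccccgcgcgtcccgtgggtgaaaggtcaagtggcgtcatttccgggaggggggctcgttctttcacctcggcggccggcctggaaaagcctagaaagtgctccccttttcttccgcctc
Hspa5: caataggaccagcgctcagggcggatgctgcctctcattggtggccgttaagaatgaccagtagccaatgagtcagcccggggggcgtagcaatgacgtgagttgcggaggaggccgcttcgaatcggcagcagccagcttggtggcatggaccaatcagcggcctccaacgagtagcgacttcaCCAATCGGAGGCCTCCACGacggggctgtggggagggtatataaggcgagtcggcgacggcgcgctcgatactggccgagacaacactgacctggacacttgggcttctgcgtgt
The first 3 belong to cytosolic chaperones that were higher in the livers labelled iKO. The Hspe1 and Hspa5 windows belong to a mitochondrial and an ER chaperone that did not pass the test.

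Library totals ran from 18139507 to 19911983 expected counts, and edgeR's TMM scaling factors from 0.780 (iKO 1) to 1.18 (WT 2). Nek7 (gene ID 59125) had 50.2, 32.8 and 31.0 CPM (a share of the library's counts, TMM-normalized) in the livers labelled iKO, against 55.5, 40.5 and 36.4 CPM in WT livers, which overlap (log2 fold change -0.22, SE 0.23, adjusted p = 0.541, edgeR quasi-likelihood test with Benjamini-Hochberg adjustment). The labels do not say which part of Nek7 the allele removes, so this level does not check the knockout. The Y-linked genes Ddx3y and Kdm5d together had 573, 861 and 883 expected counts in iKO 1, 2 and 3, against 1113 in WT 1 and 0 in WT 2 and WT 3. The fold changes, adjusted p-values and counts of called genes were therefore also computed with a term for Y-linked reads and in the 4 libraries that hold them, where WT 1 is the lone WT library and its spread is assumed to be that of the others. Y-linked reads here means those of Ddx3y and Kdm5d. Of other Y-linked genes, Uty had 17.8 and 11.4 CPM and Eif2s3y 0.266 and 0.193 CPM in WT 2 and WT 3. The sex-biased gene Mup20 had 6510 CPM in WT 1, 162 and 111 CPM in WT 2 and WT 3, and 7440, 7087 and 5896 CPM in iKO 1, 2 and 3. Cyp2b13, also sex-biased, had 0.183 CPM in WT 1, 269 and 293 CPM in WT 2 and WT 3, and 0, 0.581 and 0 CPM in iKO 1, 2 and 3. WT 2 and WT 3 thus stood apart from WT 1 and the livers labelled iKO in both genes. Of 12 clock genes 7 rose and 3 fell, and Dbp had 99.8, 141 and 144 CPM in the livers labelled iKO, against 0.793, 1.24 and 2.27 CPM in WT livers. Kupffer cell markers summed to 141 to 196 CPM in the livers labelled iKO, against 260 to 468 CPM in WT livers, and all 6 fell. Of the markers of stellate cells and fibroblasts 6 of 8 fell (summed 138 to 176 CPM in the livers labelled iKO, against 298 to 498 CPM in WT livers), and of neutrophil markers 4 of 6 (10.2 to 31.2 CPM, against 25.0 to 115 CPM). Of 5 hepatocyte, 5 cholangiocyte and 3 tested erythroid markers 0 were called, and no marker was at 0 in all libraries. The log2 fold change also ran with transcript length across genes (Spearman's rho = -0.35 over 12995 genes, which are not independent), with shorter transcripts higher in the livers labelled iKO. The part of clock state, sex and cell makeup in the results below was not tested except through the Y-linked term.

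Of the 88 members 79 passed the filter on low counts (about 0.525 CPM in at least 3 libraries). The other 9 were Cct6b, Cct8l1, Dnajb3, Dnajb7, Dnajb13, Dnajc6, Hspb2, Hspb7 and Hspb9, and Dnajc6 had 0 counts in every library. In the livers labelled iKO 12 of the 79 rose and 1 fell at an adjusted p under 0.05, beside a background of 7.31% of 13160 tested genes called higher and 8.07% called lower. In either direction 16.5% of the tested members were called, against 15.4% of all tested genes, so the share called was near the background. Of all called genes 47.5% were higher, and 31.1% with limma on log2(FPKM + 1). The members' median log2 fold change was 0.21, against -0.02 over all tested genes. With limma the members' median was about 0 and that of all genes was -0.12. In 27 of the 79 members all 3 livers labelled iKO lay above all 3 WT livers, where 19.8% of all tested genes did so. In 4 members they lay below, where 19.2% did so. In either direction the groups of 39.0% of all tested genes did not overlap.

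By compartment, 10 of 44 tested cytosolic or nuclear members rose and 1 fell (25.0% called, against 15.4% of all tested genes). In the ER 1 of 13 rose, in mitochondria 1 of 8 rose, and of TRiC 0 of 8 were called by edgeR, with 0 at an unadjusted p under 0.05 and 0 by DESeq2 or limma. The median log2 fold change was 0.29 for cytosolic, 0.06 for ER, 0.22 for mitochondrial and 0.19 for TRiC members. With the correction for transcript length these medians were 0.22, 0.16, 0.03 and 0.20, so the order of the ER, mitochondrial and TRiC medians depended on that correction. Differences between compartments were not tested.

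**Figure D1:**
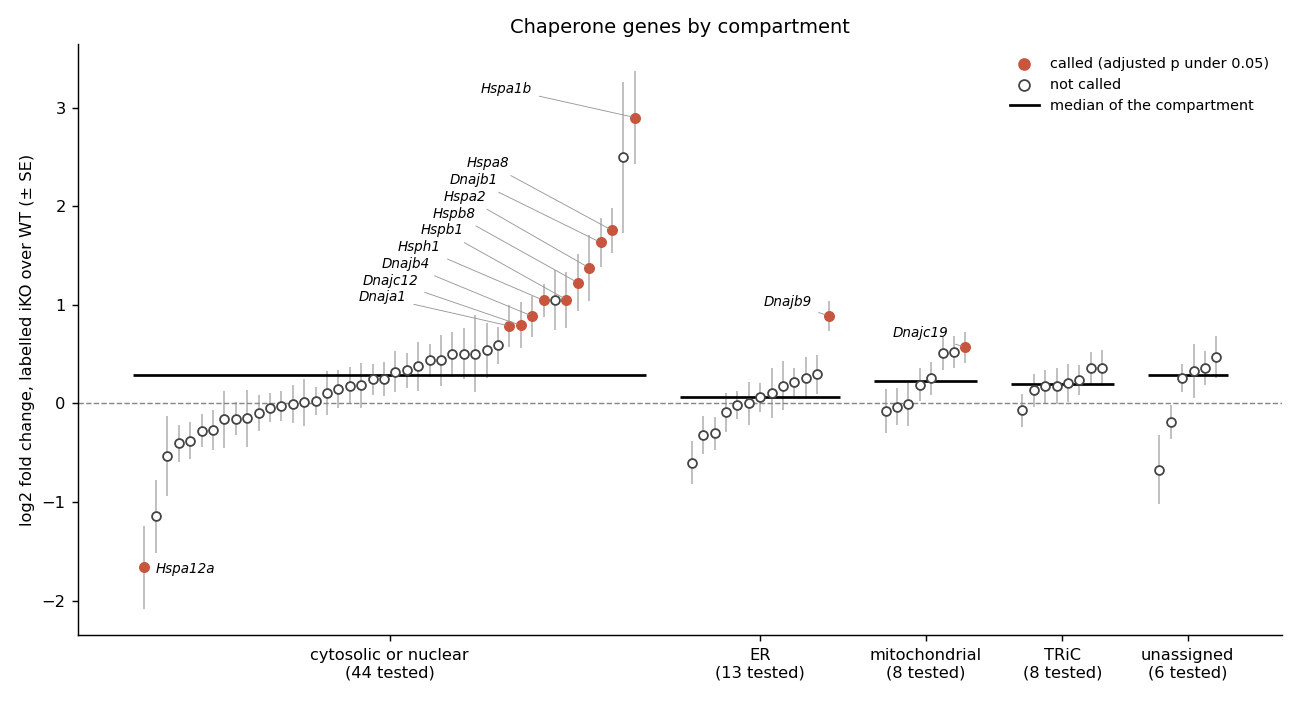
Log2 fold change (livers labelled iKO over WT livers, n = 3 each) of the 79 tested chaperone genes by compartment, with bars for the SE from edgeR and a black line at each compartment's median. Filled points passed the adjusted p of 0.05, from Hspa1b at 2.90 to Hspa12a at -1.66. Of these 13 genes 11 are cytosolic or nuclear, as are 44 of the 79 tested.

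Hspa8 (gene ID 15481) encodes HSC70, the constitutive HSP70 of the cytosol that also uncoats clathrin vesicles. It had 2257, 1835 and 2200 CPM in the livers labelled iKO, against 531, 635 and 696 CPM in WT livers. The groups are far apart, and the lowest liver labelled iKO stood well above the highest WT liver. The mean was 2097 ± 229 CPM in the livers labelled iKO and 621 ± 83.3 CPM in WT livers (SD, n = 3 each), a 3.38-fold difference (log2 fold change 1.76, SE 0.23, adjusted p = 0.0025). With the term for Y-linked reads Hspa8 was the only member called, at a log2 fold change of 1.98 (adjusted p = 0.045), beside 1.4% of all tested genes called in that fit. In the 4 libraries with Y-linked reads its adjusted p was 0.105 and 0 members were called by edgeR, with 9 at an unadjusted p under 0.05 and 1.05% of all genes called (0.485% called higher).

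Hspa8 was also the most abundant chaperone transcript per length in the livers labelled iKO. Its level was 1242, 1487 and 1842 TPM (a level scaled for transcript length and library) in the livers labelled iKO, against 419, 662 and 619 TPM in WT livers. Hsp90ab1, the constitutive cytosolic HSP90, had 619, 590 and 589 TPM in the livers labelled iKO and 437, 608 and 668 TPM in WT livers. In WT livers Hspa8 and Hsp90ab1 were thus at like levels, and in the livers labelled iKO Hspa8 stood alone at the top. Hspa8 took 26.4%, 24.9% and 29.5% of the summed TPM of all members in the livers labelled iKO, against 9.88%, 13.0% and 12.7% in WT livers. Without Hspa8 the members summed to 3460, 4474 and 4403 TPM in the livers labelled iKO and to 3820, 4432 and 4268 TPM in WT livers, which overlap. In TMM-normalized CPM the same sums were 6682, 6121 and 5805 in the livers labelled iKO, against 5478, 4777 and 5318 in WT livers, and did not overlap. The same held for the cytosolic members without Hspa8, with 3451, 2629 and 2477 CPM in the livers labelled iKO, against 2008, 2006 and 2142 CPM in WT livers. Whether the remaining members as a sum stood higher therefore depended on the scale.

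**Figure D2:**
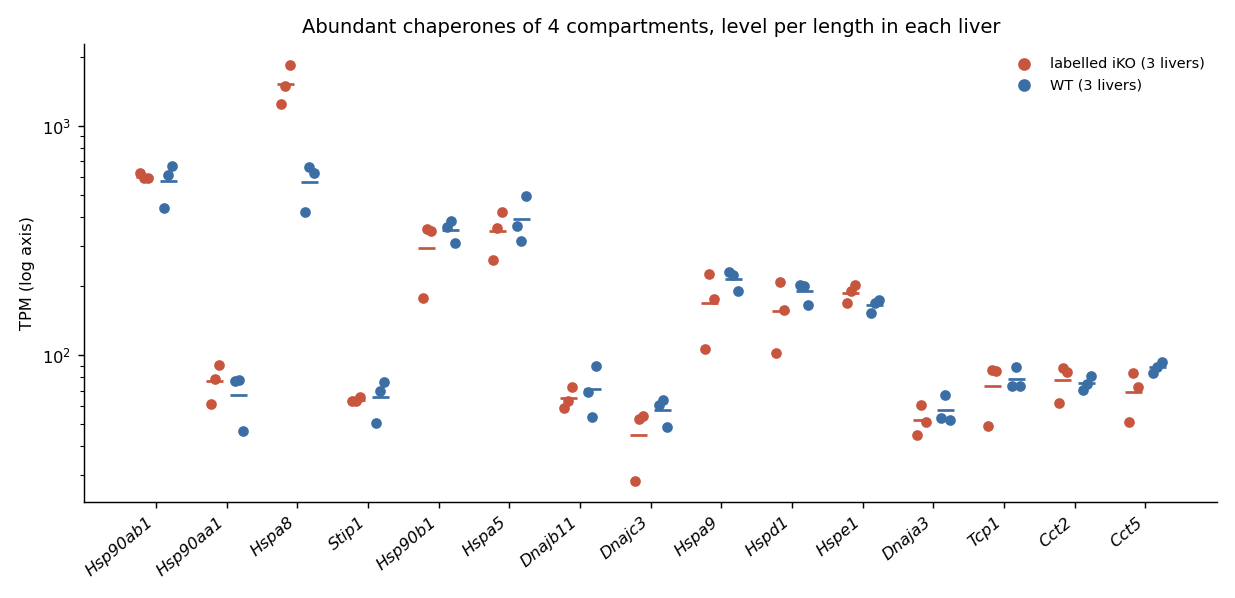
Level in TPM of a chosen set of abundant chaperone genes in each of the 3 livers labelled iKO and the 3 WT livers (log axis, with a short line at each mean). The set is not a ranking. Hspb8, a called gene with means of 286 TPM in the livers labelled iKO and 164 TPM in WT livers, is not shown. Hspa8 lies between 1242 and 1842 TPM in the livers labelled iKO and between 419 and 662 TPM in WT livers, while the points of the ER and mitochondrial HSP70s, Hspa5 and Hspa9, mix.

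The stress-inducible HSP70 genes Hspa1a and Hspa1b had the largest fold differences among tested members. Hspa1b (gene ID 15511) had 73.0, 56.2 and 28.5 CPM in the livers labelled iKO, against 10.2, 3.70 and 7.36 CPM in WT livers, a 7.47-fold difference in the edgeR fit (log2 fold change 2.90, SE 0.47, adjusted p = 0.0121). Its groups do not overlap, with iKO 3 the lowest of its group. Hspa1a (gene ID 193740) had 19.5, 21.9 and 3.76 CPM in the livers labelled iKO, against 3.60, 1.07 and 3.33 CPM in WT livers (log2 fold change 2.50, SE 0.77, adjusted p = 0.0786). In Hspa1a iKO 3 sat just above the WT livers, and the gene was called without that library (log2 fold change 2.99, adjusted p = 0.00741) and by DESeq2 (adjusted p = 0.0213). The 2 genes are near-identical, so reads can be split between them, and the expected counts of Hspa1b were not whole in any of the 6 libraries. Summed into 1 gene, the pair had 92.5, 78.1 and 32.3 CPM in the livers labelled iKO, against 13.8, 4.79 and 10.7 CPM in WT livers (log2 fold change 2.80, SE 0.53, adjusted p = 0.0215). The summed pair was not called with the Y-linked term (log2 fold change 2.30, adjusted p = 0.221), and Hspa1b was not called without WT 3 (adjusted p = 0.0695). The call of the summed pair also ended without iKO 1, iKO 2 or WT 3 (adjusted p = 0.077, 0.0541 and 0.0942).

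Another 2 genes of the HSP70 family passed the test in opposite directions at low levels. Hspa2 (gene ID 15512), best known for its need in spermatogenesis, had 4.20, 5.36 and 7.52 CPM in the livers labelled iKO, against 1.38, 2.58 and 2.61 CPM in WT livers (log2 fold change 1.38, SE 0.33, adjusted p = 0.0261). Its call ended without iKO 3 (adjusted p = 0.0734) or WT 2 (adjusted p = 0.063). Hspa12a (gene ID 73442), a distant HSP70 relative, fell to 0.533, 0.751 and 0.311 CPM in the livers labelled iKO, against 1.33, 1.95 and 1.79 CPM in WT livers (log2 fold change -1.66, SE 0.42, adjusted p = 0.029). Its groups do not overlap, but it passed the count filter through the WT livers only, and its call ended without iKO 1, iKO 3, WT 2 or WT 3 (adjusted p from 0.0589 to 0.135). Hspa12b, a related gene known from endothelial cells, had 0.733, 0.536 and 0.519 CPM in the livers labelled iKO and 1.17, 1.51 and 1.26 CPM in WT livers, also without overlap, and was not called (log2 fold change -1.14, SE 0.37, adjusted p = 0.0625). Markers of sinusoidal endothelial cells summed to 48.7 to 109 CPM in the livers labelled iKO, against 131 to 210 CPM in WT livers, with 3 of 7 called lower and none at 0 in all libraries. In bulk tissue fewer cells of a type and less RNA per cell cannot be told apart.

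J proteins stimulate the ATPase of HSP70 and choose its clients, and 6 of 38 tested rose while 0 fell (15.8% called, against 15.4% of all tested genes). Dnajb1 (gene ID 81489), the main stress-inducible partner of cytosolic HSP70, had 60.2, 32.7 and 31.2 CPM in the livers labelled iKO, against 12.6, 13.7 and 13.6 CPM in WT livers. The WT livers were tightly grouped and iKO 1 stood above iKO 2 and iKO 3. The mean was 41.4 ± 16.3 CPM in the livers labelled iKO and 13.3 ± 0.599 CPM in WT livers (SD, n = 3 each), with a 3.10-fold difference in the edgeR fit (log2 fold change 1.63, SE 0.25, adjusted p = 0.00512). Its expected counts were not whole in any library, a sign of reads shared with other loci.

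Dnajb4 (gene ID 67035), a close relative of Dnajb1, had 22.0, 29.9 and 34.6 CPM in the livers labelled iKO, against 16.8, 17.6 and 12.4 CPM in WT livers (log2 fold change 0.89, SE 0.21, adjusted p = 0.0235). Dnaja1 (gene ID 15502), a class A J protein of the cytosol, had 127, 179 and 158 CPM in the livers labelled iKO, against 99.5, 99.8 and 70.2 CPM in WT livers (log2 fold change 0.79, SE 0.21, adjusted p = 0.0357). Dnajc12 (gene ID 30045), which aids the aromatic amino acid hydroxylases, had 16.3, 14.7 and 11.3 CPM in the livers labelled iKO, against 9.88, 5.86 and 8.65 CPM in WT livers (log2 fold change 0.79, SE 0.23, adjusted p = 0.0474). None of these 3 overlapped between the groups, but each was lost when single libraries were left out. The calls ended without iKO 2, iKO 3, WT 2 or WT 3 for Dnajb4 (adjusted p from 0.0502 to 0.0719), without those or WT 1 for Dnaja1 (0.0527 to 0.11), and without iKO 1, iKO 2, WT 2 or WT 3 for Dnajc12 (0.086 to 0.175). With the length correction the log2 fold change of Dnajc12 was 0.56 (adjusted p = 0.122).

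The HSP110 protein Hsph1 (gene ID 15505), which exchanges the nucleotide of HSP70 and works with it in disaggregation, had 50.8, 42.9 and 38.9 CPM in the livers labelled iKO, against 18.6, 22.4 and 23.1 CPM in WT livers. Every liver labelled iKO lay well above the WT livers, and the means were 44.2 ± 6.06 CPM in the livers labelled iKO and 21.4 ± 2.43 CPM in WT livers (SD, n = 3 each; log2 fold change 1.05, SE 0.16, adjusted p = 0.00521). The other HSP110-type exchange factors were not called. Hspa4 had a log2 fold change of -0.15 (95% interval -0.53 to 0.22) and Hspa4l one of -0.27 (-0.72 to 0.18).

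Bag3 (gene ID 29810), a stress-inducible exchange factor that sends HSP70 clients to autophagy, had 91.2, 45.5 and 39.3 CPM in the livers labelled iKO, against 25.4, 26.3 and 33.1 CPM in WT livers. Its groups do not overlap, with iKO 1 far above the rest, and it missed the threshold in edgeR (log2 fold change 1.05, SE 0.31, adjusted p = 0.0516) and passed it in DESeq2 (adjusted p = 0.0068). Without iKO 1 its log2 fold change was 0.59 (adjusted p = 0.0563), and without iKO 3 it was called (1.31, adjusted p = 0.0312). Of the 6 BAG genes 0 were called by edgeR, where 15.4% of all tested genes were. Of the same 6 genes 2 had an unadjusted p under 0.05, and 1 was called by DESeq2 and 0 by limma.

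Of the 3 tested small heat shock proteins 2 rose, where 7.31% of all tested genes were called higher. Hspb8 (gene ID 80888), the partner of BAG3, had 529, 286 and 258 CPM in the livers labelled iKO, against 130, 175 and 153 CPM in WT livers, a 2.34-fold difference in the edgeR fit (log2 fold change 1.23, SE 0.29, adjusted p = 0.0237). Hspb1 (gene ID 15507), the small heat shock protein HSP25, had 51.5, 24.3 and 29.0 CPM in the livers labelled iKO, against 17.1, 20.0 and 13.3 CPM in WT livers (log2 fold change 1.05, SE 0.28, adjusted p = 0.0396). As in Dnajb1 and Bag3, iKO 1 had the highest value of the 6 livers in both genes. Hspb6, or HSP20, had a log2 fold change of -0.01 (95% interval -0.43 to 0.42). Hspb8 was not called without any single WT library (adjusted p from 0.0622 to 0.0649). Hspb1 was not called without iKO 1, iKO 3 or any WT library (0.0578 to 0.117), with a log2 fold change of 0.67 without iKO 1, nor with the length correction (log2 fold change 0.60, adjusted p = 0.156).

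**Figure D3:**
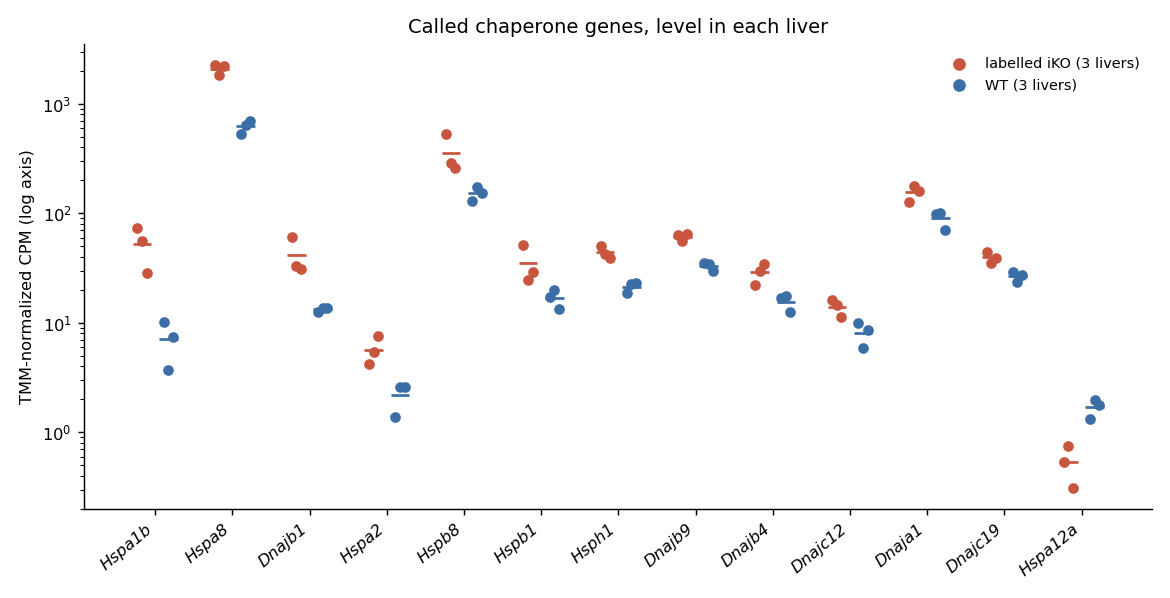
CPM (log axis) of the 13 called chaperone genes in each of the 3 livers labelled iKO and the 3 WT livers, with a short line at each mean. In each of the 13 genes the groups do not overlap, 12 with the livers labelled iKO above and Hspa12a with them below. Hspa12a passed the count filter through the WT livers only. The groups of 39.0% of all tested genes did not overlap. The genes shown were picked by the test on these same values, so their lack of overlap is no further support.

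HSP90 and its adaptors were not called, where 15.4% of all tested genes were. Hsp90aa1, the stress-inducible cytosolic HSP90, had 151, 132 and 148 CPM in the livers labelled iKO and 133, 101 and 71.5 CPM in WT livers (log2 fold change 0.50, SE 0.23, adjusted p = 0.16). Hsp90ab1 had 1345, 870 and 844 CPM in the livers labelled iKO and 663, 697 and 898 CPM in WT livers (log2 fold change 0.44, SE 0.26, adjusted p = 0.269). Both sets of values overlap, and for the 3 HSP90 genes 0 had an unadjusted p under 0.05 and 0 were called by DESeq2 or limma. Stip1, which bridges HSP70 and HSP90, stood at a log2 fold change of 0.32 (adjusted p = 0.309). St13, an HSP70-binding adaptor, had 71.6, 82.9 and 63.0 CPM in the livers labelled iKO and 87.3, 87.3 and 88.5 CPM in WT livers, with no overlap and no call (log2 fold change -0.27, adjusted p = 0.271).

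In the ER, Dnajb9 (gene ID 27362), or ERdj4, a J protein that binds BiP and is induced by the unfolded protein response, was the 1 member that rose. It had 62.9, 56.2 and 64.4 CPM in the livers labelled iKO, against 34.8, 34.5 and 29.7 CPM in WT livers. The spread within each group was small, and the means were 61.2 ± 4.33 CPM in the livers labelled iKO and 33.0 ± 2.87 CPM in WT livers (SD, n = 3 each; log2 fold change 0.89, SE 0.15, adjusted p = 0.00698).

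The abundant ER chaperones did not separate the groups. Hspa5, or BiP, the HSP70 of the ER, had 573, 537 and 609 CPM in the livers labelled iKO and 560, 365 and 671 CPM in WT livers (log2 fold change 0.11, 95% interval -0.45 to 0.67). Hsp90b1, or GRP94, the HSP90 of the ER, had 427, 576 and 547 CPM in the livers labelled iKO and 607, 484 and 457 CPM in WT livers (log2 fold change 0.002, interval -0.49 to 0.49). In Hspa5 the WT livers spread across the range of the livers labelled iKO. In Hsp90b1 the ranges of the groups overlap, with iKO 1 the lowest liver and WT 1 the highest. The BiP partners Dnajb11 and Dnajc3 had log2 fold changes of 0.18 (interval -0.38 to 0.74) and -0.09 (-0.53 to 0.36). The signs of Hspa5, Hsp90b1, Dnajb11 and Dnajc3 changed under some other settings, and none of the 4 was called in any. Dnajc16, or ERdj8, had the lowest log2 fold change of the ER members, -0.60 (adjusted p = 0.0847).

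The HSP70s of the cytosol and ER can be compared within each liver, which removes any scaling of the library. The ratio of Hspa8 to Hspa5 in TPM was 4.77, 4.14 and 4.39 in the livers labelled iKO, against 1.15, 2.11 and 1.26 in WT livers. The ratio of Hspa8 to Hspa9, the mitochondrial HSP70, was 11.7, 6.56 and 10.5 in the livers labelled iKO, against 1.83, 2.95 and 3.26 in WT livers. Neither ratio overlapped between the groups (exact two-sided permutation p = 0.1 each, the smallest that 3 against 3 livers allow, and 0.133 after Benjamini-Hochberg adjustment over 4 ratios). The ratio of Hsp90aa1 to Hsp90b1 was 0.343, 0.223 and 0.262 in the livers labelled iKO, against 0.212, 0.203 and 0.151 in WT livers (exact permutation p = 0.1, adjusted 0.133). That of Hsp90ab1 to Hsp90b1 was 3.47, 1.67 and 1.70 in the livers labelled iKO and 1.20, 1.59 and 2.17 in WT livers (exact permutation p = 0.4, adjusted 0.4), which overlap. The 4 ratios were chosen after values had been seen.

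In mitochondria the chaperones of the matrix did not separate the groups. Hspa9, or mortalin, had 281, 407 and 306 CPM in the livers labelled iKO and 424, 313 and 311 CPM in WT livers (log2 fold change -0.08, 95% interval -0.58 to 0.43). Hspd1, or HSP60, had 206, 286 and 210 CPM in the livers labelled iKO and 286, 213 and 207 CPM in WT livers (log2 fold change -0.01, interval -0.50 to 0.48). The sign of both changed under other settings, and neither was called in any. Hspe1, the lid of HSP60, had 108, 82.0 and 84.9 CPM in the livers labelled iKO and 67.6, 56.6 and 68.2 CPM in WT livers, with no overlap (log2 fold change 0.51, SE 0.18, adjusted p = 0.0741). Its effective transcript length was 719 bases, and with the length correction its log2 fold change was 0.04.

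Dnajc19 (gene ID 67713), a J protein of the inner membrane import motor, was the 1 mitochondrial member called, with 44.7, 35.0 and 39.2 CPM in the livers labelled iKO, against 29.3, 23.7 and 27.1 CPM in WT livers (log2 fold change 0.57, SE 0.16, adjusted p = 0.0408). Its effective length was 681 bases, its log2 fold change with the length correction was 0.08 (adjusted p = 0.737) and -0.02 with the Y-linked term as well, and its counts were not whole in any library. Its call also ended without iKO 1, iKO 3 or any WT library (adjusted p from 0.0531 to 0.184). For Dnajc15, another J protein of that membrane, it was 0.52 (adjusted p = 0.0578), and -0.02 with the length correction, at an effective length of 599 bases.

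None of the 8 tested TRiC subunits was called, where 15.4% of all tested genes were. Their log2 fold changes ran from -0.07 in Cct5 (95% interval -0.44 to 0.31) to 0.36 in Cct7 (-0.05 to 0.77), with Tcp1 at 0.17, Cct2 at 0.36, Cct3 at 0.18, Cct4 at 0.13, Cct6a at 0.24 and Cct8 at 0.21. Cct2 had 107, 103 and 96.3 CPM in the livers labelled iKO and 85.0, 68.0 and 86.5 CPM in WT livers. In Cct2 and Cct6a, 2 of the 8, all livers labelled iKO lay above all WT livers, where 19.8% of all tested genes did so. The groups of the other tested subunits overlapped. The signs of Tcp1, Cct3, Cct4, Cct5 and Cct8 turned under some other settings. Summed over members, TRiC had 689, 729 and 700 CPM in the livers labelled iKO and 651, 561 and 634 CPM in WT livers, with no overlap. In TPM the sums were 369, 574 and 568 in the livers labelled iKO and 501, 569 and 552 in WT livers, which overlap, with iKO 1 the lowest.

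Leaving out each of the 6 libraries in turn, 4 of the 79 tested members were called in every fit, beside 465 of all 13160 tested genes. The 4 were Hspa8 (largest adjusted p 0.0169), Hsph1 (0.0251), Dnajb1 (0.0257) and Dnajb9 (0.0401). The correction for transcript length kept 9 of the 12 members called higher, beside 5.84% of all tested genes called higher in that fit. It ended the calls of Hspb1, Dnajc12 and Dnajc19, and that of the lower Hspa12a (log2 fold change -1.41, adjusted p = 0.0562). With the Y-linked term the log2 fold changes stayed positive in all 12, but 11 of the calls ended, among them Hsph1 (adjusted p = 0.0516), Dnajb1 (0.093), Dnajb9 (0.149) and Hspa1b (0.152). Limma on log2(FPKM + 1) ended the calls of Dnaja1, Dnajb4, Dnajc12, Dnajc19, Hspa12a, Hspa2 and Hspb1.

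**Figure D4:**
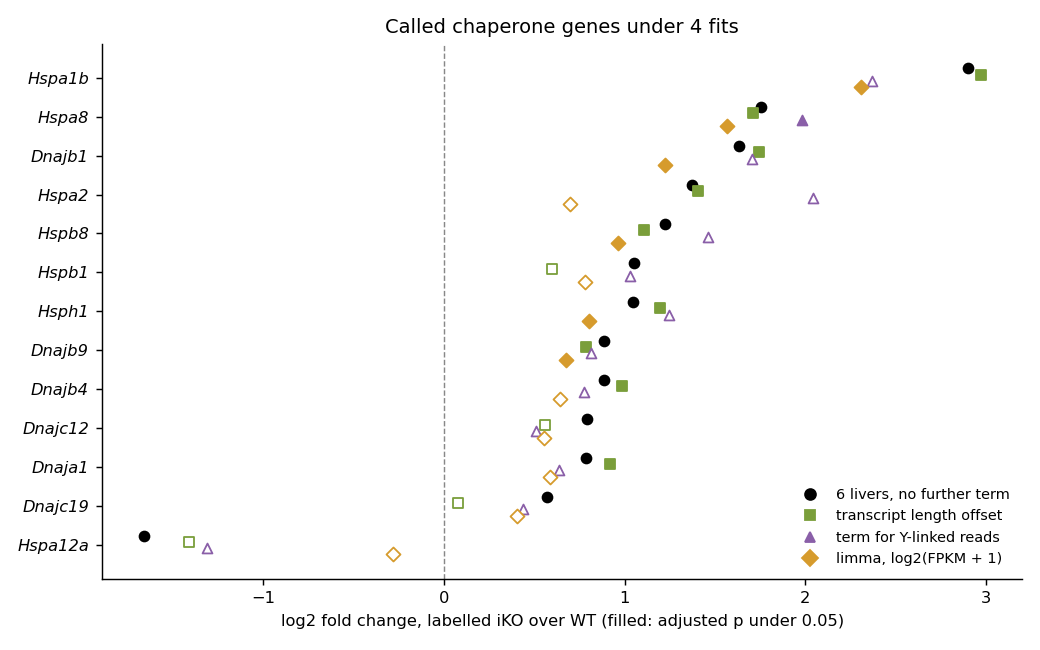
Log2 fold change (livers labelled iKO over WT livers) of the 13 called chaperone genes under 4 fits, marked by shape and colour: edgeR on 6 livers, edgeR with a transcript length offset, edgeR with a term for Y-linked reads, and limma on log2(FPKM + 1). Filled marks have an adjusted p under 0.05, and Hspa8 is the 1 gene filled in all 4 fits.

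Partners of the chaperones outside the symbol rule were read from lists of the same machines. Their counts stand beside the 15.4% of all tested genes that were called. Of 5 tested genes of HSF1 and its regulators 3 rose. Hsf1, the main heat shock transcription factor, had 26.9, 20.7 and 24.2 CPM in the livers labelled iKO, against 14.6, 17.1 and 14.3 CPM in WT livers (log2 fold change 0.64, SE 0.16, adjusted p = 0.0308). Hsf4 rose by 0.65 (adjusted p = 0.047) and Hsbp1, a small HSF1-binding protein, by 0.60 (adjusted p = 0.028) on the log2 scale. All 3 calls ended with the length correction and with the Y-linked term. They also ended without single libraries, those of Hsf1 and Hsf4 without any library but iKO 2 and that of Hsbp1 without iKO 3, WT 2 or WT 3.

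Of 21 HSP90 co-chaperones 3 rose and 1 fell (19.0% called, near the share of all tested genes). Fkbp5, an HSP90-bound prolyl isomerase and a textbook target of the glucocorticoid receptor, had 128, 134 and 126 CPM in the livers labelled iKO, against 23.7, 29.8 and 29.7 CPM in WT livers (log2 fold change 2.22, SE 0.17, adjusted p = 0.00021). Its groups lie far apart with little spread inside either, and its call held under every setting tried. Chordc1, a co-chaperone with zinc-binding domains, had 22.6, 30.1 and 29.5 CPM in the livers labelled iKO, against 13.2, 18.0 and 12.7 CPM in WT livers (adjusted p = 0.0161), and it was not called without iKO 3 or WT 3. Tsc1, which is also an HSP90 co-chaperone besides restraining mTORC1, fell to 17.3, 18.9 and 15.7 CPM in the livers labelled iKO, against 33.6, 32.2 and 33.8 CPM in WT livers (log2 fold change -0.94, adjusted p = 0.0047), a call that held without each library in turn and ended with the Y-linked term. Pih1d1, of the R2TP complex, rose by 0.59 on the log2 scale (adjusted p = 0.039).

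Among the mitochondrial partners Clpx, the unfoldase of the matrix protease ClpXP, fell to 47.6, 54.6 and 37.2 CPM in the livers labelled iKO, against 242, 213 and 132 CPM in WT livers (log2 fold change -2.07, SE 0.26, adjusted p = 0.00203). The highest liver labelled iKO was far below the lowest WT liver, and this call held under every setting tried. Clpp, the peptidase of the same protease, went the opposite way (log2 fold change 0.77, adjusted p = 0.038). These were 1 rise and 1 fall among 13 tested genes, the same 15.4% as over all genes. Of 21 ER folding partners 1 rose (4.76%), the translocon subunit Sec61b (log2 fold change 0.64, adjusted p = 0.047), and the list's median was 0.07. Of 11 TRiC partners 2 rose (18.2%), and both encode subunits of prefoldin, which hands actin and tubulin to TRiC (Pfdn6, log2 fold change 0.94, adjusted p = 0.029, and Pfdn2, 0.60, adjusted p = 0.043). The calls of Clpp, Sec61b, Pfdn6 and Pfdn2 ended with the length correction. Without single libraries they ended for Clpp and Pfdn2 in every case but iKO 2, for Sec61b in all 6 cases and for Pfdn6 without iKO 1, iKO 3, WT 1 or WT 2.

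**Figure D5:**
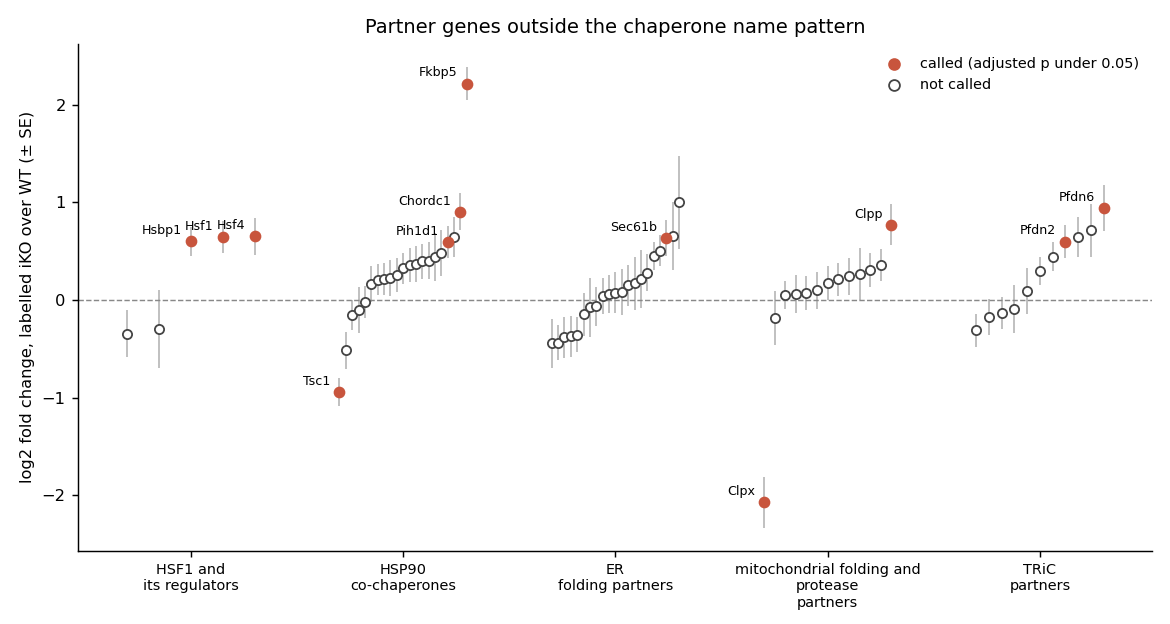
Log2 fold change (livers labelled iKO over WT livers, bars for the SE) of the tested genes in 5 lists of chaperone partners, with filled points where the adjusted p was under 0.05. Fkbp5 at 2.22 and Clpx at -2.07 lie farthest from 0.

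The promoter windows printed above can be set beside these values. A window was at hand for 72 of the 88 members, and Hspa8, Hsp90aa1, Hsp90ab1, Hspa9 and Dnajc12 were among those without one. Some genes have several windows, and a gene counted as holding a motif if any of its windows did. A heat shock element of 2 units, on either strand, lay in 26.4% of these members, against 14.2% of the tested genes with a window. Of the 10 members called higher with a window, 6 held it: Hspa1b, Hspb8, Hspb1, Hsph1, Dnajb4 and Dnaja1. The same element lay in 4 of 9 TRiC members (44.4%), namely Cct2, Cct5, Cct6a and Cct8l1, and in 2 of 5 mitochondrial members. Of TRiC 0 of 8 tested members were called, and Cct8l1 and Cct6b, both with a window, were not tested. Dnaja1, Dnajb4, Cct2, Cct5 and Hspd1 each also had a window without this element. The Dnajb1 windows held none of the motifs searched. A longer element of 3 units (GAANNTTCNNGAA or TTCNNGAANNTTC), which contains the shorter one, lay in 4 of 72 members (5.56%), against 0.531% of tested genes, and these were Hsph1, Dnajb6, Hspd1 and Hspe1. Of the 4, Hsph1 alone was called. Hspd1 and Hspe1 stand head to head on the chromosome and share the region between them.

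The ER stress element lay in Hspa5, Hsp90b1 and Dnajc3 (4.17% of members, against 0.171% of tested genes), all 3 of the ER and none called. The E-box CACGTG, to which clock factors bind, lay in 7 of the 72 members (9.72%), against 11.4% of tested genes. It lay in 2 of the 10 members called higher (20.0%), Dnajb9 and Hsph1, and in 3 of 11 ER members (27.3%). These matches describe the letters in the windows and do not show that a factor binds there.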

How the data were processed

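RNA from 6 mouse livers was sequenced, 3 labelled iKO and 3 labelled WT. The submitters' processing notes name build mm9 and, as tools, RSEM 1.2.12, HISAT2 2.0.4 and Bowtie2 2.2.5. The authors' table lists 17441 genes, with 3 deposited values per library: an expected count, an FPKM and a TPM value. The deposited expected counts are estimates in which reads can be split between like genes, and 64.9% to 68.3% of them were whole within 0.001. The deposited FPKM and TPM values are scaled for length and library and still carry any shift that a handful of very abundant transcripts brings. The sources used here do not say if strand was used in counting.

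Expected counts were rounded and tested with edgeR 4.0.16 in R 4.3.3 (filterByExpr, TMM, robust fit, quasi-likelihood F test, 13160 genes tested, p adjusted by Benjamini-Hochberg over all of them, threshold 0.05). "Called", "rose" and "fell" refer to that threshold. Adjusted p-values are from edgeR unless another tool is named. The SE was computed as log2 fold change divided by the root of the F statistic, and 95% intervals use the t distribution with that test's degrees of freedom. Set tests were not run. Libraries held 18139507 to 19911983 counts, at which sampling noise is minor for all but members near 1 CPM. Alternatives were RLE factors, no filter, DESeq2 1.42.0, limma 3.58.1 on log2(FPKM + 1), a replicate block, each library left out, a term for Y-linked reads (over 10 counts of Ddx3y and Kdm5d), the 4 libraries with such reads, a length offset (lowess span 0.3), and both together. No 2 libraries held identical values, and the scripts were tested on simulated data. Promoters are from RefSeq, GRCm38.p6, another build than mm9, and were matched by gene symbol or ID.

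The members, the lists and the rule for named genes were chosen with earlier results of these data known. The rule names Nek7, each called member of at least 1 CPM, the 3 members highest in TPM per compartment, a fixed set of core members, and up to 3 called genes of each partner list. Hspa12b, Hspa4, Hspa4l, Hspb6, Stip1, St13, Dnajc15, Dnajc16, Dnajb6, Pih1d1, Creld2, Manf and Hyou1, and the clock, Y-linked and sex-biased genes given, were named after their values were seen.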

Additional observations from a re-analysis of the deposited data

How the results depend on the processing

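RLE factors and the absence of a filter left the counts of called members at 12 higher and 1 lower. DESeq2 called 14 members higher and 1 lower, beside 1324 higher and 1235 lower among all 13160 tested genes. Limma gave 6 members higher and 0 lower, beside 421 higher and 931 lower among all of them. Of its called members 5 were cytosolic and 0 mitochondrial. Over all genes the calls numbered 184 with the Y-linked term, 143 when limited to 4 libraries holding Y-linked reads and 164 with the Y-linked term and the length offset together. In these 3 fits the members called higher were 1, 0 and 1, all cytosolic, and 0 members were lower. ER and mitochondrial members had 0 calls in each, and the length offset alone left 0 lower and 0 mitochondrial. The summed Hspa1a and Hspa1b had log2 fold changes of 2.30, 2.31 and 2.35 in those 3 fits (edgeR adjusted p = 0.221, 0.266 and 0.255). Of the partner lists, HSF1 and its regulators had 0 calls with limma, the length offset and the 3 fits, HSP90 co-chaperones 2 with limma and 1 in each of the 3, ER partners 3 with DESeq2 and 0 with limma, the length offset and the 3, mitochondrial partners 1 in all of these but DESeq2, and TRiC partners 1 with limma and 0 with the length offset and the 3. The share of promoters with a heat shock element was 5.56% with 3 units in place of 2. Leaving out 1 library gave 491 to 1840 calls over all genes, 5 to 9 members higher and 0 to 1 lower, 4 to 9 cytosolic, 0 to 1 mitochondrial, 0 to 3 for HSF1 and its regulators, 2 to 4 for HSP90 co-chaperones, 0 for ER partners, 1 to 2 for mitochondrial partners and 0 to 3 for TRiC partners, and 2.50 to 3.17 for the summed pair. The cause of these changes was not tested, except that the fits of 4 libraries and those that leave out 1 have fewer samples.

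Equal replicate numbers do not pair the livers, since the 3 correlations of same-numbered deviations were 0.207, 0.218 and 0.046, and iKO 3 was most like WT 2 (0.334). With the replicate number as a block 1710 genes and 9 members higher and 1 lower were called, and Dnaja1, Dnajc12 and Dnajc19 ended (edgeR adjusted p = 0.0508, 0.0544 and 0.0509). The block also gave 0 mitochondrial members, 1 call for HSF1 and its regulators, 2 for ER partners and 1 for TRiC partners.

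Signs turned in values that were not called in either case, save Dnajc19 and Sec61b, whose log2 fold changes were -0.02 and -0.10 with the length offset and Y-linked term. In that fit Hsp90b1 was -0.20, Dnajb11 -0.04, Hspe1 -0.01, Cct4 -0.03 and Cct8 -0.08. With the length offset alone Nek7 was 0.02, Hspa9 0.02, Dnajc4 -0.02 and Dnajc3 0.16. With limma Hspa5 was -0.04, Hsp90b1 -0.19, Tcp1 -0.004, Cct3 -0.002, Cct4 -0.07 and Dnajc25 -0.08. Hsp90b1 was -0.0008 without a filter, and -0.23 with the Y-linked term and in the 4 libraries, where Cct8 was -0.06. Hspd1 was 0.01 with RLE factors and DESeq2. With 1 library left out, Hspa5 ran from -0.07 to 0.31, Hsp90b1 from -0.08 to 0.14, Dnajb11 from -0.02 to 0.38, Cct5 from -0.13 to 0.02, Hspa9 from -0.22 to 0.09, Hspd1 from -0.15 to 0.16 and Dnajc3 from -0.19 to 0.07.

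With 3 livers a group, and WT 1 the lone WT library with Y-linked reads, differences of the size seen in most members could not be separated from the spread between livers once that term was in the model. Members below about 0.525 CPM were not tested. The values of the short transcripts Hspe1, Dnajc15 and Dnajc19 depend on whether the length trend is corrected.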

Other observations

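Several ER folding genes spread widely within the WT group. Creld2, an ER stress-inducible gene, had 69.4, 32.0 and 51.4 CPM in the livers labelled iKO and 25.4, 11.4 and 39.4 CPM in WT livers. Manf, a secreted ER protein, had 154, 93.3 and 157 CPM in the livers labelled iKO and 86.9, 47.0 and 123 CPM in WT livers, and Hyou1, an ER relative of HSP110, had 217, 132 and 170 CPM in the livers labelled iKO and 152, 91.5 and 203 CPM in WT livers. In all 3, as in Hspa5 and Dnajb11, WT 2 was the lowest of the 6 livers, and none was called. WT 2 was the lowest liver in 12 of 21 ER folding partners (57.1%) and in 5 of 8 tested TRiC subunits (62.5%), against 18.4% of all tested genes. Of the 13 ER members it was the lowest in 3 (23.1%), while iKO 1 was the lowest in 6 (46.2%). WT 2 is one of the 2 WT libraries without reads of the Y-linked Ddx3y and Kdm5d.

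Among the livers labelled iKO, iKO 1 had the highest value of all 6 livers in 31 of 79 tested members (39.2%), against 25.5% of all tested genes, and the lowest in 17 (21.5%), against 26.8% of all tested genes. It was the highest for Bag3, Hspb1, Hspb8 and Dnajb1. This library has the lowest TMM factor, 0.780, and an albumin share of 5.18% of counts, against 7.57% to 10.7% in WT livers. The members' summed share of counts was 0.697%, 0.787% and 0.851% in iKO 1, 2 and 3, against 0.598%, 0.636% and 0.625% in WT 1, 2 and 3. These counts were chosen after values had been seen.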
